A study of Oikopleura dioica with 67 samples.

Results

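The 145 unigenes described here carried no gene symbol in the authors' staged table and were high for a short time around hatching in Oikopleura dioica. A unigene is an assembled transcript, named here by its assembly identifier. Members were chosen from the staged table of RPKM (reads scaled to the length of the unigene and the size of the library) by 3 conditions: no symbol, a mean of at least 20 RPKM in the 2.5 hpf tadpole or the 3 hpf hatched larva (hpf, hours post fertilization), and a higher of these 2 means at least 8 times each of the means, plus 1, of the egg, the 10 hpf juvenile, the adult female and the adult male. They were 145 of 19277 unigenes and 1.58% of the 9155 without a symbol. The levels at these stages chose the members and are given as a description only. Unigenes are written below by the part of their identifier from DN onwards, after one full spelling (OD_K21COV8_DN14977_c3_g6_i6), and libraries by their number in the labels.

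Oikopleura dioica is a larvacean, a planktonic tunicate that keeps its notochord and tail throughout life. Its embryo develops very fast into a tadpole that hatches swimming, with organs still forming, and the larva then passes to a juvenile whose trunk epithelium secretes the mucous house in which the animal filters food. The staged table gives the members no name, and no role is given to any of them here.

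All samples were wild type animals of a Japanese population kept in laboratory culture, in which larvae hatch at 3 hpf and a working body is complete by 10 hpf. The first set held 43 whole-animal RNA-seq libraries made strand-specifically, 3 for each of 13 stages (egg, fertilized egg, 2-cell, 4-cell, 8-cell, 16-cell, 32-cell, 1.5 hpf, 2.5 hpf tadpole, 3 hpf hatched larva, 5 hpf, 8 hpf and 10 hpf) and 2 each of adult females and adult males. The second set held 24 libraries made without strand information, 4 each of vegetal hemisphere, animal hemisphere and whole embryo samples at 12 hpf and at the 8-cell stage, with numbers 3 to 6 in each group. The labels do not say how a sample was assigned to a hemisphere at 12 hpf, nor whether libraries of a group came from separate cultures, so p-values measure only the spread between these libraries. The 2 sets were normalised separately and were not tested against each other.

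Several libraries stood apart from the others of their group, and marker levels were set beside the labels. Whole embryo number 6 at 12 hpf had a summed member level of 13776 RPKM, against 2814, 3183 and 4257 RPKM in numbers 3, 4 and 5, and whole embryo number 4 at the 8-cell stage had 1560 RPKM, against 329, 439 and 477 RPKM in the others. Results that rest on these libraries are given with and without them. The whole embryos labelled 12 hpf held 2027 to 2641 summed RPKM of 104 digestive protease unigenes and 805 to 1329 summed RPKM of 18 egg marker unigenes. The same lists summed to 1805 to 3434 and 569 to 1131 RPKM at 5 hpf, to 5366 to 9533 and 147 to 239 RPKM at 8 hpf, and to 10914 to 12972 and 117 to 145 RPKM at 10 hpf in the staged set. By these lists the whole embryos labelled 12 hpf were nearer to 5 hpf than to 10 hpf, in a comparison across separately normalised sets. The sums of 117 cilia unigenes did not give this order. They were 2009 to 2856 RPKM in these whole embryos, against 831 to 2144 RPKM at 5 hpf, 1713 to 3355 RPKM at 8 hpf and 1501 to 1766 RPKM at 10 hpf. Hemisphere samples were not summed for these lists, and the label is kept below only as a name. The staged libraries had 7785352 to 95644620 reads, and all libraries of the 2.5 hpf and 3 hpf stages came from 1 sequencing run (run B, with 2 of 3 libraries of 5 hpf and of 8 hpf), so run and these 2 stages cannot be told apart. Both the 32-cell and the 1.5 hpf libraries were on the other run (run A).

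The members fell into 3 classes by where they peaked. Of the 145, 53 were tadpole-peaking (2.5 hpf mean at least 1.5 times the 3 hpf mean), 71 were hatchling-peaking (3 hpf mean at least 1.5 times the 2.5 hpf mean) and 21 were similar at both. Median levels of the tadpole-peaking class were 2.74, 250, 418, 20.3 and 2.05 RPKM at 32-cell, 1.5 hpf, 2.5 hpf, 3 hpf and 5 hpf. The class similar at both had medians of 1.04, 45.04, 79.6, 68.6 and 6.44 RPKM at these stages. Hatchling-peaking members had medians of 0.030, 1.82, 9.40, 62.4 and 13.4 RPKM. The tadpole-peaking class was thus already high at 1.5 hpf and near its start again at 5 hpf, and the hatchling-peaking class was low at 1.5 hpf and still above its start at 5 hpf.

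**Figure D1:**
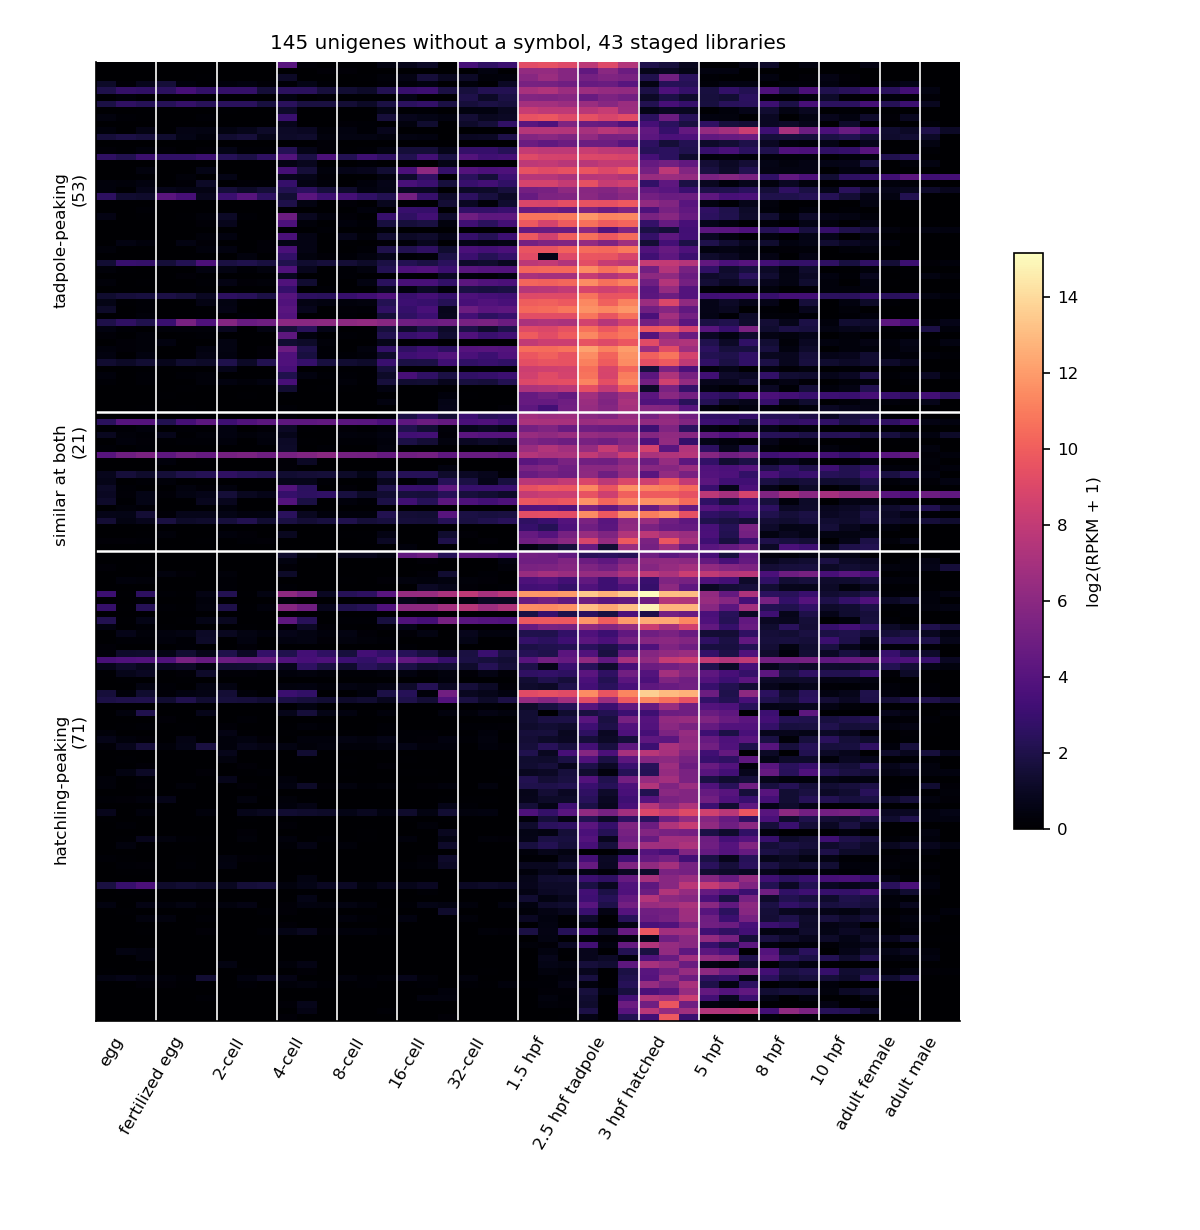
Level of each of the 145 unigenes (rows, grouped by class and ordered within a class by the 1.5 hpf mean as a share of the peak mean, highest on top) in each of the 43 staged libraries (columns, in order of stage), as log2(RPKM + 1) by colour. The 53 tadpole-peaking unigenes are bright from 1.5 hpf to 2.5 hpf, and the 71 hatchling-peaking unigenes are mostly brightest at 3 hpf.

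The stage of the highest mean over all 13 stages was 1.5 hpf for 17 members, 2.5 hpf for 49, 3 hpf for 73 and 5 hpf for 6. The first stage with a mean of 5 RPKM or more was 1.5 hpf for 49 members, 2.5 hpf for 32 and 3 hpf for 21, and the other 43 had such a mean earlier. Such a mean could rest on 1 library. At 4-cell, 34 members had 5 RPKM or more in library 36, against 13 and 8 in libraries 37 and 43. The last stage at 5 RPKM or more was 3 hpf for 54 members and 5 hpf for 50. At 5 hpf, 82 members still had a mean of 5 RPKM or more, and these were 10 of 53 tadpole-peaking, 16 of 21 similar at both and 56 of 71 hatchling-peaking. At 8 hpf and 10 hpf the number was 32 and 16 of the 145.

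The highest levels were those of a few hatchling-peaking unigenes. DN14977_c3_g6_i6 had 235, 127 and 200 RPKM at 32-cell, 3653, 3542 and 4020 RPKM at 1.5 hpf, 10760, 6673 and 11446 RPKM at 2.5 hpf, 36013, 8872 and 8505 RPKM at 3 hpf, and 73.0, 22.4 and 151 RPKM at 5 hpf. With a 3 hpf mean of 17797 RPKM it ranked first of the 19277 unigenes at that stage. Its 3 hpf level rested on 1 library, number 5, without which both other hatchling libraries lay within the range of the tadpole libraries. DN12254_c1_g1_i6, ranked second at 3 hpf, had 29112, 7133 and 7012 RPKM there and 8628, 5316 and 9287 RPKM at 2.5 hpf. Its 3 hpf level rested on library 5 in the same way, and it kept a near-constant ratio to DN14977. In the 44 libraries of both sets where both had 5 RPKM or more, the ratio of DN12254 to DN14977 ran from 0.663 to 0.978 with a median of 0.801. Unigenes this proportional may be copies or fragments that share reads, and their separate levels are uncertain.

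DN9566_c0_g2_i1 had 0.906, 0.661 and 0.357 RPKM at 32-cell, 575, 681 and 588 RPKM at 1.5 hpf, 2845, 765 and 2514 RPKM at 2.5 hpf, and 12637, 7945 and 6706 RPKM at 3 hpf, where it ranked sixth of all unigenes. All hatchling libraries lay above all tadpole libraries. At 5 hpf it had 28.9, 3.18 and 67.2 RPKM. DN18324_c1_g4_i1 had 871, 918 and 891 RPKM at 1.5 hpf, 3599, 1008 and 3960 RPKM at 2.5 hpf, 5896, 5361 and 2649 RPKM at 3 hpf, and 12.3, 3.75 and 20.98 RPKM at 5 hpf. The tadpole and hatchling libraries of DN18324 overlapped. DN19443_c0_g5_i2, similar at both stages, had 3389, 1243 and 2569 RPKM at 2.5 hpf and 3162, 3169 and 1388 RPKM at 3 hpf, and its tadpole and hatchling libraries overlapped.

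Tadpole-peaking members were many times lower in hatchlings than in tadpoles, with a median ratio of tadpole to hatchling means of 12.2. DN13698_c0_g1_i4 had 1532, 1471 and 1731 RPKM at 1.5 hpf, 4803, 2319 and 4245 RPKM at 2.5 hpf, and 95.3, 608 and 97.9 RPKM at 3 hpf. DN20033_c2_g1_i2 had 1316, 1470 and 1833 RPKM, then 3274, 2720 and 3752 RPKM, then 31.6, 54.6 and 19.9 RPKM at these stages. For DN12476_c0_g1_i1 the values were 1784, 1747 and 2012 RPKM, then 3685, 2484 and 2655 RPKM, then 40.2, 58.0 and 24.5 RPKM. In all of these every hatchling library lay below every tadpole and every 1.5 hpf library. Hatchling library 33 was the highest of its stage for 40 of the 53 tadpole-peaking members, and tadpole library 4 the lowest of its stage for 37.

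**Figure D2:**
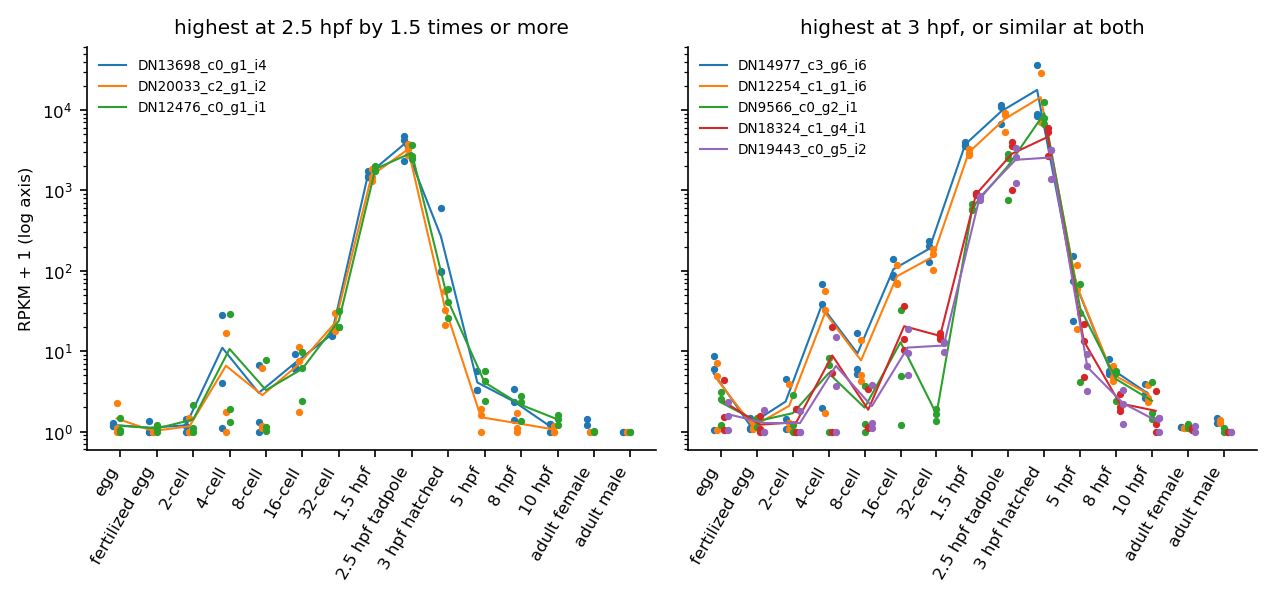
RPKM + 1 on a log axis at the 13 stages and in adult females and males for the 8 members with the highest peak means, each point a library and each line joining the means of the 13 stages. The 3 tadpole-peaking unigenes on the left are far lower at 3 hpf than at 2.5 hpf, and the 5 on the right are far lower at 5 hpf than at 3 hpf.

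Of the 17 members with their highest mean at 1.5 hpf, DN15186_c3_g3_i2 had 1.84, 0.851 and 1.01 RPKM at 32-cell, 747, 862 and 565 RPKM at 1.5 hpf, 697, 466 and 633 RPKM at 2.5 hpf, and 4.76, 27.3 and 4.32 RPKM at 3 hpf. At the late end, DN16564_c0_g1_i1 had 71.9, 35.99 and 115 RPKM at 2.5 hpf, 485, 299 and 562 RPKM at 3 hpf, 373, 204 and 806 RPKM at 5 hpf, and 16.4, 66.96 and 33.6 RPKM at 8 hpf. DN13138_c0_g1_i1 had 208, 79.1 and 109 RPKM at 3 hpf and 168, 163 and 196 RPKM at 5 hpf, after 2.85, 0 and 15.2 RPKM at 2.5 hpf. Its hatchling and 5 hpf libraries overlapped, while its tadpole libraries lay below both.

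Summed over the 145, members made up 3.11% to 3.32% of the summed RPKM of a library at 1.5 hpf, 4.34% to 8.42% at 2.5 hpf and 4.88% to 9.39% at 3 hpf. The share was 0.0570% to 0.0850% at 32-cell, 0.255% to 0.439% at 5 hpf and 0.0357% to 0.0439% at 10 hpf. In eggs it was 0.00932% to 0.0188%, and in the 4 adult libraries 0.00553% to 0.0256%. These are per-length levels within a library, so fewer cells of a type and less RNA per cell cannot be told apart. Much of the sum came from few unigenes: in hatchling library 5 the 4 highest members held 79.1% of it, against 51.2% and 63.0% in libraries 33 and 34. In the tadpole libraries the 4 highest held 30.2% to 35.3%.

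**Figure D3:**
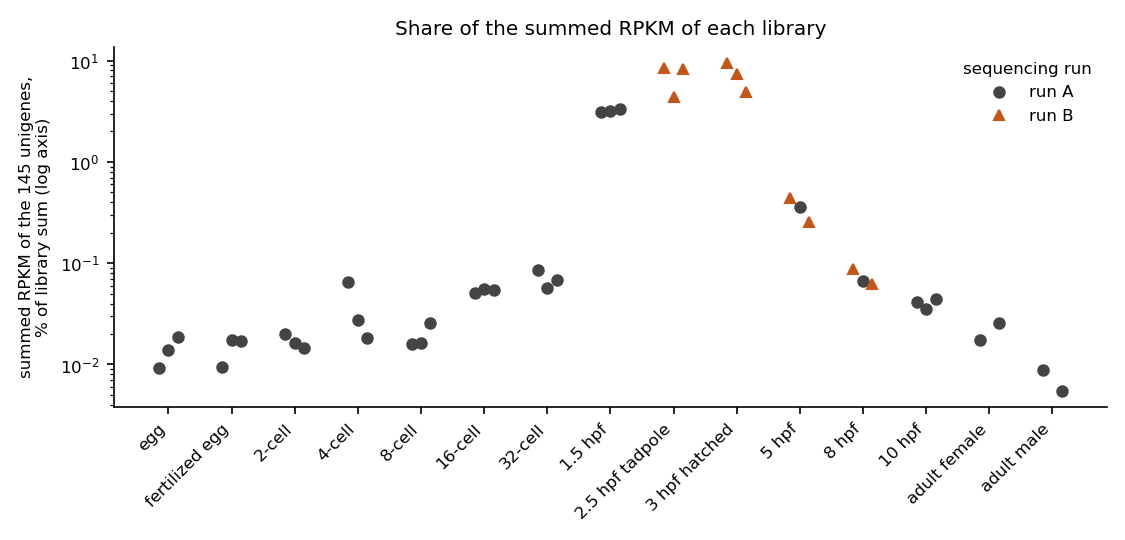
Summed RPKM of the 145 unigenes as a percentage of the summed RPKM of each staged library (log axis), by stage, with circles for sequencing run A and triangles for run B. All 3 libraries of 1.5 hpf, on run A, lie above 3%, and the 5 hpf library of run A lies between the 2 of run B.

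The same numeric conditions held for 154 unigenes that carry a symbol, 1.52% of 10122, which is close to the share without one. The 2 sets differed in their levels, which are a description because the rule used them. The median peak mean was 92.8 RPKM in the members and 63.0 RPKM in the unigenes with a symbol, and the summed peak means were 107828 and 22067 RPKM. A peak mean of 1000 RPKM or more was seen in 26 members and in 3 unigenes with a symbol, and 17 of the 20 highest peaks were members. Peaks under 100 RPKM were seen in 77 of 145 members and in 105 of 154 unigenes with a symbol. By class, 53 of the members were tadpole-peaking, 21 similar at both and 71 hatchling-peaking, against 33, 18 and 103 of the 154 with a symbol.

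The most abundant symbols of the same profile were Sspo, with a peak mean of 2342 RPKM, which in vertebrates encodes SCO-spondin, a large secreted protein of the nervous system, CA4 with 2234 RPKM, a membrane-bound carbonic anhydrase, and Hmcn1 with 1822 RPKM, hemicentin 1 of the extracellular matrix. Of 190 unigenes of notochord and matrix symbols 11 met the conditions, among them laminin, collagen and perlecan (HSPG2) unigenes. Of 117 muscle unigenes 7 did, among them MYH6, Tnnt2 and MYBPC3 of the sarcomere. The muscle list as a whole did not have this profile. Its sum was 16900.2 to 20898.4 RPKM at 3 hpf and 19150.2 to 32487.7 RPKM at 10 hpf. In adult females it was 12223.2 to 27855.6 RPKM, and in adult males 49521.1 to 84344.5 RPKM. Transcription factor symbols gave 8 of 103, secreted protease symbols 5 of 186, transport symbols 4 of 108 and neural symbols 2 of 99. Of 104 digestive marker unigenes 2 met them, and none did of 117 cilia unigenes, 16 sperm marker unigenes or 18 egg marker unigenes. With 1.52% of all unigenes with a symbol under the conditions, these counts are small and were not tested.

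Before the 1.5 hpf stage most members were near 0. In the egg 123 of 145 had a mean under 1 RPKM, and 38 were listed at 0 in all 3 libraries. Egg means of 5 RPKM or more were seen in 5 members, with the highest in DN29089_c0_g1_i3, which had 15.4, 30.1 and 40.7 RPKM there. At the 4-cell stage, library 36 had a summed member level of 694 RPKM, against 336 and 226 RPKM in libraries 37 and 43. DN31499_c2_g1_i4 was the highest member from the 2-cell to the 8-cell stage, with 63.6, 59.4 and 66.4 RPKM at 4-cell, 36.04, 42.3 and 27.1 RPKM at 32-cell, and 385, 185 and 383 RPKM at 2.5 hpf. At 32-cell, 33 of 145 members had a mean of 5 RPKM or more and 42 were listed at 0 in all 3 libraries.

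The step into 1.5 hpf was measured in libraries that the rule did not use. Relative to 32-cell, 103 of 145 members (71.0%) were higher at 1.5 hpf and none were lower, by limma on log2(RPKM + 1) with Benjamini-Hochberg adjustment over 18704 unigenes. Over all unigenes tested 11.5% were higher and 3.01% lower. An unadjusted p under 0.05 was seen for 111 members and for 4524 of all 18704 unigenes tested. The higher members were 53 of 53 tadpole-peaking, 19 of 21 similar at both and 31 of 71 hatchling-peaking. The median log2 difference was 3.89 over the members and 0.17 over all unigenes tested, and it was 6.003, 4.35 and 1.17 in the 3 classes. Members were chosen for low eggs and high tadpoles or hatchlings, and both stages compared lie between these, so part of this difference follows from the choice. After quantile normalisation, which moved the median of all unigenes by -0.24, 93 members were higher and none were lower, while the split over all unigenes was 1251 higher and 1187 lower, against 2156 and 563 as deposited.

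The largest differences were those of DN9566 and DN15186, whose values are given above. DN9566 was higher at 1.5 hpf by a log2 difference of 8.56 (SE 0.85, limma adjusted p = 6.61e-10) and DN15186 by 8.35 (SE 0.55, limma adjusted p = 2.15e-14). In both, every 1.5 hpf library lay far above every 32-cell library. DN14977, with the highest level at 32-cell, was higher by 4.36 (SE 0.82, limma adjusted p = 1.42e-04), and DN13698 by 6.61 (SE 0.69, limma adjusted p = 2.12e-09). These differences are on the log2(RPKM + 1) scale, which understates the change of unigenes near 0. Among 91 members with a 1.5 hpf mean of 5 RPKM or more, the highest library was within 2 times the lowest in 76. One exception was DN15528_c0_g7_i1, singled out after its values were seen, with 611, 0.596 and 539 RPKM at 1.5 hpf and 828, 777 and 448 RPKM at 2.5 hpf. The 1.5 hpf library 2 had 18.93% of its reads aligned, against 41.92% and 39.49% in libraries 19 and 31, and its summed member level of 35238 RPKM lay between theirs of 34156 and 37827 RPKM.

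**Figure D4:**
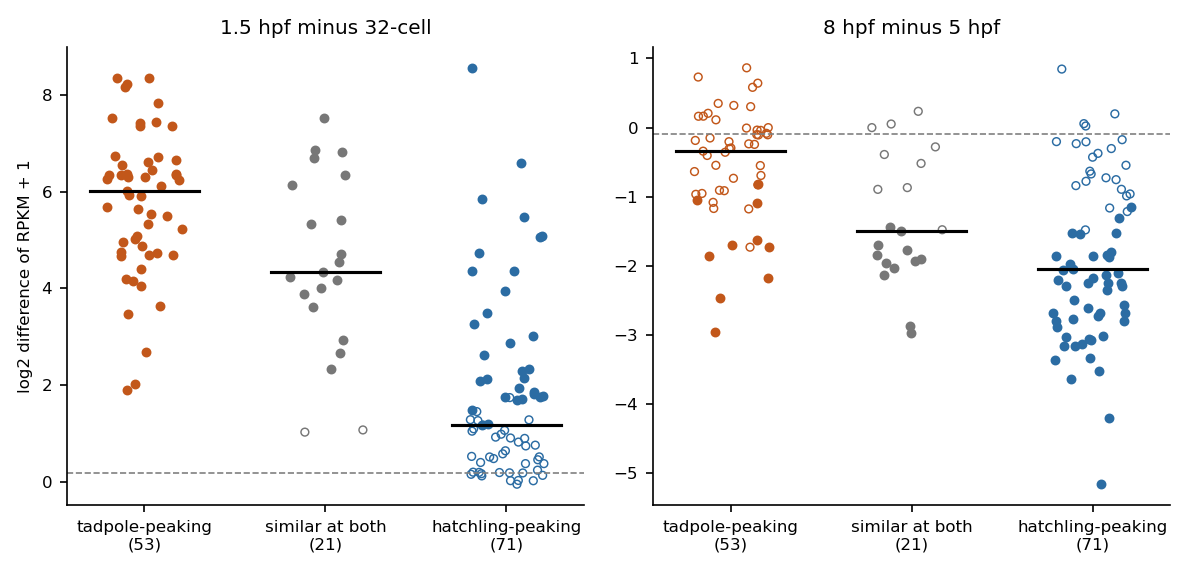
Log2 difference of RPKM + 1 for each member by class, 1.5 hpf minus 32-cell on the left and 8 hpf minus 5 hpf on the right, with filled points for members past an adjusted p of 0.05, a black line for the class median and a dashed line for the median of all unigenes tested. On the left all 53 tadpole-peaking members are filled and above 0, and on the right 47 of 71 hatchling-peaking members are filled and below 0.

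Levels after hatching were compared between 8 hpf and 5 hpf, which the rule did not use. At 8 hpf, 69 of 145 members (47.6%) were lower than at 5 hpf and none were higher by limma, against 10.8% lower and 19% higher over all unigenes tested. An unadjusted p under 0.05 was seen for 79 members and for 7099 of all 18704 unigenes tested. The lower members were 10 of 53 tadpole-peaking, 12 of 21 similar at both and 47 of 71 hatchling-peaking. The median log2 difference was -1.15 over the members and -0.10 over all unigenes, and -0.34, -1.50 and -2.05 in the 3 classes. Most tadpole-peaking members were already under 5 RPKM at 5 hpf. As above, members were chosen for low levels at 10 hpf, so part of a lower level at the later stage follows from the choice. With quantile normalisation 54 members were lower and none higher, with 2680 unigenes higher and 2852 lower in all, against 3549 and 2013 as deposited. In a fit of the 6 compared libraries alone 35 of 121 members tested were lower, with 544 lower and 1157 higher of 17477 unigenes.

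DN13757_c0_g3_i1 had 3.58, 1.03 and 3.57 RPKM at 8 hpf, against 282, 142 and 46.9 RPKM at 5 hpf. It was lower by a log2 difference of -5.16 (SE 0.63, limma adjusted p = 4.07e-08). DN11264_c0_g1_i3 had 1.84, 2.17 and 2.35 RPKM at 8 hpf, against 75.3, 54.2 and 43.4 RPKM at 5 hpf, a difference of -4.20 (SE 0.29, limma adjusted p = 1.02e-13). In neither did the libraries of the 2 stages overlap. DN14977 had 4.66, 4.27 and 7.03 RPKM at 8 hpf, against 73.0, 22.4 and 151 RPKM at 5 hpf, a difference of -3.37 (SE 0.82, limma adjusted p = 0.00153). For DN9566 the difference was -2.29 (limma adjusted p = 0.0388), and it was no longer past 0.05 without library 6 or 20 of 5 hpf or library 21 or 35 of 8 hpf, where it lay between -2.46 and -1.42. Without library 21 of 8 hpf, 2 members were higher at 8 hpf, DN16099_c0_g3_i4 by 1.42 and DN34256_c0_g1_i8 by 1.09. Both stages hold 1 library of run A and 2 of run B. With run as a term in the fit 70 members were lower and none higher, with 2378 and 4013 over all unigenes. The run A library had the highest value of the 3 for 67 members and the lowest for 52 at 5 hpf, and the highest for 34 and the lowest for 84 at 8 hpf. Members past the test in both steps, higher at 1.5 hpf and lower at 8 hpf, were 43 of 145, and 16 were past it in neither. The shares of all unigenes past both or neither were not taken, so these counts are no result about the members.

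The hemisphere set was not used by the rule. At 12 hpf the summed member level was 3124, 4222, 3165 and 3100 RPKM in vegetal samples, 1756, 2719, 2591 and 3032 RPKM in animal samples, and 2814, 3183, 4257 and 13776 RPKM in whole embryos, in order of the numbers 3 to 6. The 10 hpf libraries of the separately normalised staged table summed to 424, 394 and 433 RPKM, and those of 5 hpf to 3626, 2205 and 4019 RPKM. In the vegetal, animal and whole libraries 67, 64 and 90 members had a mean of 5 RPKM or more, and without whole embryo number 6 the last of these was 63. The filter on low values was passed by 135 of 145 members in this set, and percentages of members below are of these 135. The libraries were made without strand information, so reads of an overlapping or antisense transcript cannot be told from those of a member.

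Between the hemispheres at 12 hpf, 39 members (28.9%) were higher in vegetal than in animal samples and 19 (14.1%) were lower, by limma with Benjamini-Hochberg adjustment over 15697 unigenes. Over all unigenes tested 32.9% were higher and 15.3% lower, so the shares among members were near those of the whole table or below them. With the numbers as a block, 40 members were higher and 24 lower, with 6005 and 2840 over all unigenes. Of the 71 hatchling-peaking members 28 were higher and 15 lower, against 6 and 3 of the 53 tadpole-peaking and 5 and 1 of the 21 similar at both. After quantile normalisation, which moved the median of all unigenes by -0.48, 19 members were higher and 25 lower, with 3546 and 3979 over all unigenes, against 5157 and 2409 as deposited. Of the members past the test as deposited, 19 of the 39 higher and 17 of the 19 lower were still past it in the same direction, and none were past it in the opposite direction.

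Single members differed greatly between the hemispheres. DN15687_c3_g3_i3 had 94.5, 241, 190 and 182 RPKM in vegetal samples, against 0, 0.430, 0.384 and 0.458 RPKM in animal samples, and 48.02, 48.2, 82.2 and 33.97 RPKM in whole embryos. The difference was 7.02 (SE 0.35, limma adjusted p = 8.38e-14), with no overlap between the hemispheres. DN16564 had 382, 1146, 897 and 516 RPKM in vegetal samples, against 4.76, 5.35, 15.02 and 9.68 RPKM in animal samples, a difference of 6.24 (SE 0.60, limma adjusted p = 4.45e-09). In the other direction, DN12995_c0_g3_i2 had 1.47, 0, 0 and 0.907 RPKM in vegetal samples, against 11.1, 6.79, 43.96 and 4.89 RPKM in animal samples, a difference of -3.09 (SE 0.55, limma adjusted p = 4.73e-05). DN32721_c1_g2_i3 had 21.5, 0.364, 0.910 and 1.85 RPKM in vegetal samples, against 50.6, 31.6, 20.7 and 15.8 RPKM in animal samples, a difference of -2.96 (SE 0.55, limma adjusted p = 8.17e-05). Vegetal number 3 lay within the range of the animal samples in DN32721, and the hemispheres did not overlap in the other 3.

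**Figure D5:**
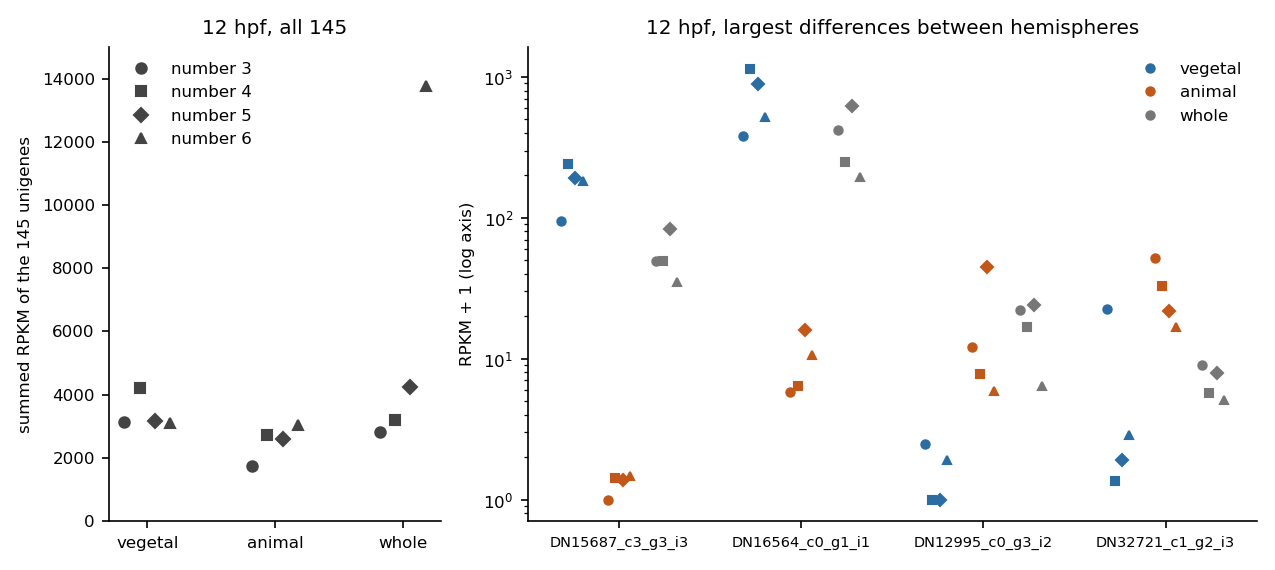
Left, summed RPKM of the 145 unigenes in each library labelled 12 hpf, by vegetal, animal and whole samples, with a symbol for each number. Right, RPKM + 1 (log axis) of the 4 members with the largest differences between hemispheres, 2 in each direction, vegetal, animal and whole samples side by side, where whole embryo number 6 stands apart on the left and is the lowest whole embryo for each of the 4 on the right.

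Hemisphere samples were set against whole embryos at 12 hpf as the mean of vegetal and animal samples minus that of whole embryos, on the log2(RPKM + 1) scale. On this scale a unigene held by a single hemisphere can be called lower without a lower mean RPKM. DN15687 was called lower (difference -1.80, limma adjusted p = 7.59e-05). It had 94.5 to 241 RPKM in vegetal and 0 to 0.458 RPKM in animal samples, against 33.97 to 82.2 RPKM in whole embryos. By limma, 35 members (25.9%) were lower in the hemispheres and none were higher, against 22.7% lower and 1.28% higher over all unigenes tested, so the share of members was near that of the table. Without whole embryo number 6, 30 were lower, of which 28 were among the 35, and 4 were higher (DN23394_c0_g5_i2, DN5821_c0_g1_i2, DN23613_c0_g1_i5 and DN30331_c0_g2_i1, by 1.11 to 1.51). Over all 15385 unigenes tested in that fit 3126 were lower and 155 higher. With the numbers as a block 37 were lower and 1 higher, with 4503 and 485 over all unigenes. After quantile normalisation, which moved the median of all unigenes by 0.42, 15 were lower and 5 higher, with 1982 and 1668 over all unigenes, against 3563 and 201 as deposited. DN26259_c1_g2_i3 had 1.86, 0.495, 1.28 and 4.02 RPKM in vegetal samples and 0.4999, 0.505, 0.450 and 0.806 RPKM in animal samples, against 32.5, 50.7, 98.9 and 49.3 RPKM in whole embryos (difference -4.74, SE 0.27, limma adjusted p = 7.86e-12). DN13138 had 8.24, 2.75, 21.8 and 11.9 RPKM in vegetal samples and 8.49, 6.65, 4.06 and 5.22 RPKM in animal samples, against 102, 160, 320 and 147 RPKM in whole embryos (difference -4.33, SE 0.36, limma adjusted p = 3.34e-09). Every whole embryo lay above every hemisphere sample in both unigenes.

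Whole embryo number 6 at 12 hpf was the highest of the 4 whole embryos in 80 of the 145 members, against 27.3% of the unigenes detected in them. DN14977 had 3602 RPKM there, against 13.6, 9.14 and 10.7 RPKM in numbers 3, 4 and 5, and DN9566 had 678 RPKM, against 7.14, 4.18 and 2.54 RPKM. All 8 members with the highest peaks were highest in this library. Over the whole table, 50 unigenes were at least 10 times higher in it than in each other whole embryo plus 1, and 23 of these were members. Its egg marker sum was 1329 RPKM, against 805 to 958 RPKM in the others, and its digestive protease sum 2641 RPKM, against 2027 to 2326 RPKM. Their part in the result was not tested.

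Whole embryos at 12 hpf were set against whole embryos at the 8-cell stage. By limma, 82 members (60.7%) were higher at 12 hpf and 3 (2.22%) were lower, against 56.3% and 22.9% over all unigenes tested, so the share of members that was higher was near that of the table. Members were chosen for low levels in the egg, and their median in single 8-cell whole embryo libraries was 0 to 0.454 RPKM. A member near 0 there can hardly be called lower, so part of the small share lower follows from the choice. Without whole embryo number 6 of 12 hpf, 75 were higher and 7 lower, with 8444 and 3444 over all unigenes. Without number 4 of the 8-cell stage 83 were higher and 1 lower, with 8702 and 3317 over all unigenes. Quantile normalisation moved the median of all unigenes by -1.13, and then 45 members were higher and 21 lower, with 4671 and 5189 over all unigenes, against 8831 and 3587 as deposited. DN16564 had 422, 249, 620 and 193 RPKM at 12 hpf, against 0, 0, 0 and 7.82 RPKM at the 8-cell stage (difference 7.61, SE 0.60, limma adjusted p = 1.05e-10). DN13138 had the values above at 12 hpf, against 0, 0, 0 and 0.262 RPKM at the 8-cell stage (difference 7.30, SE 0.42, limma adjusted p = 8.24e-13). DN11494_c0_g1_i1 had 1.96, 0, 1.09 and 29.02 RPKM at 12 hpf, against 8.47, 77.6, 11.8 and 6.81 RPKM at the 8-cell stage (difference -2.16, SE 0.75, limma adjusted p = 0.0114), and its groups overlapped. DN6804_c0_g1_i1 had 0, 0, 0 and 0.564 RPKM, against 0.273, 8.84, 1.50 and 1.21 RPKM (difference -1.37, SE 0.49, limma adjusted p = 0.0136). Neither of these lower calls held without whole embryo number 4 of the 8-cell stage, where the differences were -1.41 and -0.78, and that of DN11494 was also lost without number 4 of 12 hpf, at -1.53. The third lower member was DN12674_c0_g1_i1, with a difference of -0.76. The 4 further lower members without number 6 of 12 hpf were DN13132, DN27384, DN33899 and DN18917.

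The summed member level at the 8-cell stage was 522, 432, 529 and 740 RPKM in vegetal samples and 474, 434, 866 and 1128 RPKM in animal samples, which overlapped. At that stage, 3 members (2.22%) were higher in the vegetal than in the animal hemisphere and none were lower by limma, against 0.395% and 0.00637% over all unigenes tested. Unadjusted p-values under 0.05 were seen for 14 of 135 members tested, in either direction, and for 176 of all 15697 unigenes tested. The 176 are fewer than a threshold of 0.05 would give without any difference, so these p-values cannot be taken at face value. DN8896_c0_g3_i1 had 17.8, 18.8, 9.72 and 25.6 RPKM in vegetal samples and was listed at 0 in all 4 animal samples (limma adjusted p = 1.91e-04). DN33256_c0_g1_i5 had 15.6, 12.5, 27.4 and 35.2 RPKM in vegetal samples, against 0.478, 0.289, 0.327 and 0.165 RPKM in animal samples (difference 4.06, SE 0.57, limma adjusted p = 1.71e-04). DN14197_c1_g4_i1 had 49.96, 18.4, 14.1 and 56.0 RPKM in vegetal samples, against 0.719, 1.14, 0.615 and 0.186 RPKM in animal samples (difference 4.22, SE 0.85, limma adjusted p = 0.0153). No vegetal sample overlapped an animal sample in these 3, yet the call of DN14197 was lost without vegetal number 3 or 6, and without animal number 3, 5 or 6, where the difference stayed between 3.92 and 4.25. Whole embryos at the 8-cell stage had 0.358, 51.7, 0 and 1.32 RPKM of DN14197, below every vegetal sample except in number 4. For DN8896 they had 1.42, 11.5, 4.15 and 0.837 RPKM. The staged 8-cell libraries, normalised separately, had 0.230, 0.194 and 0.354 RPKM of DN14197 and 0, 0 and 0.186 RPKM of DN8896. At 12 hpf DN8896 was again higher in vegetal samples, with 4.38, 10.1, 5.19 and 1.90 RPKM, against 0, 0.838, 0 and 0.297 RPKM in animal samples (difference 2.21, SE 0.59, limma adjusted p = 0.00314). DN14197 had 4.73, 5.03, 10.4 and 11.6 RPKM in vegetal samples at 12 hpf, against 0.175, 0.353, 1.10 and 0.188 RPKM in animal samples (difference 2.57, limma adjusted p = 0.0151). DN33256 was under 0.5 RPKM in every hemisphere sample at 12 hpf.

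All 145 members were in the authors' deposited table of expression clusters, which was made from the same stages and so is no independent evidence. Cluster AG04 held 68 members among its 226 unigenes, of which 48 were tadpole-peaking. Cluster AG06 held 51 members among 407, of which 50 were hatchling-peaking. AG05 held 19, AG03 held 4 and AG02 held 3. A second annotation sheet of the authors gave a symbol to 4 members, CNR10 to DN12221_c0_g3_i1, glmU to DN8001_c0_g1_i3, LAC9 to DN25240_c0_g1_i2 and ZFHX4 to DN13636_c1_g3_i1, while the staged table gave them none. DN12221 was the highest of these, with 753, 339 and 1096 RPKM at 2.5 hpf and 940, 947 and 728 RPKM at 3 hpf, and it kept 120, 82.4 and 81.3 RPKM at 10 hpf.

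The members came from 143 assembly components, of which 2 gave more than 1 member. DN18723_c0_g1_i16 and DN18723_c0_g1_i18 are isoforms of one gene model of the assembly, with 1464, 1332 and 1925 RPKM and 1570, 957 and 1235 RPKM at 2.5 hpf, and reads may be split between them. Among 10440 pairs of members, 3 kept a ratio whose highest value was at most 1.5 times its lowest over all libraries of 5 RPKM or more in both, with at least 6 such libraries. Beside DN14977 and DN12254, these were DN22581_c0_g3_i3 and DN15627_c1_g6_i1, with a ratio of 0.781 to 1.12 in 25 libraries, and DN16099_c0_g3_i4 and DN32446_c0_g3_i1, with 0.220 to 0.326 in 6 libraries.

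Near the limits of the rule, the members with the lowest peak means were DN32522_c1_g2_i1 with 20.7 RPKM and DN33756_c1_g3_i1 with 21.1 RPKM, and the nearest unigenes outside were DN4396_c0_g1_i2 with 19.9996 RPKM and DN12320_c0_g4_i1 with 19.2 RPKM. The smallest ratios inside were 8.13 for DN29089 and 8.23 for DN33899_c0_g1_i9, and the largest outside were 7.998 for DN23686_c0_g2_i8 and 7.99 for DN28287_c1_g3_i1. With group medians in place of means the rule gave 145 unigenes, of which 133 were shared, and without hatchling library 5 it gave 184.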

How the data were processed

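RNA-seq of 67 Oikopleura dioica libraries was used, from total RNA taken with TRIzol and made into libraries with the TruSeq kit, strand-specifically for the staged set and without strand information for the hemisphere set, per the labels' protocols. The deposited values are RPKM per unigene, computed by the authors from reads, with HISAT2 named in the submitters' processing notes (version and genome build not given in the sources used here). The deposited sequencing table gives reads (7785352 to 95644620 per staged library) and the percentage aligned (18.93% to 49.03%). It gives none for the hemisphere set, whose depth is therefore unknown beyond relative values. A further 148 columns of per-library values were not used. One file header calls the tadpole stage 2 hpf where the labels have 2.5 hpf, which is used here. None of the member identifiers matched the reference gene table of 17178 genes.

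Values were compared as log2(RPKM + 1) with limma 3.58.1 in R 4.3.3 on all unigenes with at least 1 RPKM in at least 2 staged or 4 hemisphere libraries, each set fitted with all its groups, with Benjamini-Hochberg adjustment and a threshold of 0.05. Tables were handled in Python 3.11.15 with numpy 2.4.6 and pandas 2.3.3, and figures drawn with matplotlib 3.10.9. The fits were tested on simulated data. The members, lists and tests were chosen with earlier results of these data known. Named members were the 8 with the highest peak means, the 2 members with the largest difference in each direction among those past each test, and those nearest the limits of the rule. Others were named after their values were seen. In the hemisphere set same-numbered samples of a time deviated together (correlations of deviations from the group means 0.144 to 0.342 at 12 hpf and 0.550 to 0.701 at the 8-cell stage), so the numbers pair samples within a time. The main fits did not use this pairing. Between whole embryos at 12 hpf and at the 8-cell stage the correlations were -0.047 to 0.113, so there the samples share only a number. Alternatives were another pseudocount (0.1), no filter, quantile normalisation, fits of the compared libraries alone, the number as a block and leaving out each library. Sequencing run as a term and leaving out 2 libraries together were added after seeing the data.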

Additional observations from a re-analysis of the deposited data

Results flagged for a closer look

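Groups of 4 hemisphere-set libraries were examined for the summed and median levels and the count of members at 5 RPKM or more. Members named for their peak or for a comparison with 12 hpf samples were examined too. Among 66 such groups, 20 had 1 library far from the other 3. The limit used flags about 1 in 20 independent groups. These groups share the same libraries and include levels near 0, so the 20 cannot be set against that rate. Whole embryo number 6 at 12 hpf was the high one in 13 of them. Its summed member level was 13776 RPKM, its median member level 11.04 RPKM, and 96 members were at 5 RPKM or more in it. Its levels were 3602 RPKM for DN14977, 3480 RPKM for DN12254, 678 RPKM for DN9566 and 608 RPKM for DN18324. They were 22.4 RPKM for DN13698, 54.5 RPKM for DN20033, 41.5 RPKM for DN12476 and 89.3 RPKM for DN19443. They were 29.02 RPKM for DN11494 and 0.564 RPKM for DN6804. The summed level stood out in whole embryo number 4 at the 8-cell stage, at 1560 RPKM, and in vegetal number 4 at 12 hpf, at 4222 RPKM. Vegetal number 3 at 12 hpf was high for DN12476, at 2.22 RPKM, and for DN32721, at 21.5 RPKM. Animal samples at 12 hpf stood out in number 3 for DN15687, the low one at 0 RPKM, in number 5 for DN12995, at 43.96 RPKM, and in number 6 for DN26259, at 0.806 RPKM.

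The difference between vegetal and animal samples differed between 12 hpf and the 8-cell stage for 12 members named in the text. The test was an interaction term in limma with adjustment over all unigenes tested. The share of all unigenes past this test was not taken, so the count of 12 is no result about the members. Values are the vegetal minus animal difference at 12 hpf minus that at the 8-cell stage, on the log2(RPKM + 1) scale. The value was 7.14 for DN15687 (limma adjusted p = 9.91e-11), 6.61 for DN16564 (9.42e-07), -2.74 for DN12995 (0.00716) and -2.93 for DN32721 (0.00445). These 4 were named for their large difference at 12 hpf, and their 8-cell differences were -0.12, -0.37, -0.35 and -0.03, so their interaction largely restates that choice. The value was -4.06 for DN33256 (0.00029), which was named for its 8-cell difference in the same way. It was 3.73 for DN15528, 2.43 for DN25240, 1.97 for DN6804 and 1.95 for DN32522. It was -2.77 for DN13757, -2.50 for DN16099 and -2.03 for DN23613. The limma adjusted p of these 7 lay between 5.95e-04 and 0.0355.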

How the results depend on the processing

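No difference named as one of the 2 largest of its comparison changed sign under the alternatives run. Smaller differences of named members did. DN14977 was higher by 0.38 in whole embryos at 12 hpf than at the 8-cell stage (limma adjusted p = 0.83). Without number 6, its 12 hpf values of 13.6, 9.14 and 10.7 RPKM all lay below the 8-cell values of 15.3, 129, 19.6 and 49.3 RPKM. The balance of the members' counts turned round in vegetal against animal samples at 12 hpf under quantile normalisation, with 19 higher and 25 lower, against 39 and 19 as deposited. The median over all unigenes changed sign at 8 hpf against 5 hpf without library 6, 7 or 21, at 0.08, 0.04 and 0.10, and at 1.5 hpf against 32-cell under quantile normalisation, at -0.07. Leaving out each library in turn gave 97 to 101 members higher and 0 lower at 1.5 hpf against 32-cell, 0 to 2 higher and 59 to 72 lower at 8 hpf against 5 hpf, 33 to 38 higher and 16 to 25 lower in vegetal against animal samples at 12 hpf, 0 to 4 higher and 27 to 38 lower in hemisphere samples against whole embryos, 75 to 83 higher and 1 to 7 lower in whole embryos at 12 hpf against the 8-cell stage, and 2 to 3 higher and 0 lower in vegetal against animal samples at the 8-cell stage. The rule itself gave 140 to 184 members when a library of the tadpole or hatchling was left out, and 156 with upper-quartile scaling. Quantile normalisation also gave 5 higher and 15 lower in hemisphere samples against whole embryos, 45 higher and 21 lower in whole embryos at 12 hpf against the 8-cell stage, and 1 lower in vegetal samples at the 8-cell stage; the cause was not tested. Fits of the compared libraries alone, which hold fewer samples and test fewer unigenes, gave 35 lower at 8 hpf, 20 lower in hemisphere samples against whole embryos, 1 lower in whole embryos at 12 hpf and 1 lower in vegetal samples at the 8-cell stage. With the number as a block, 1 member was higher in hemisphere samples against whole embryos, and 5 were lower in whole embryos at 12 hpf against the 8-cell stage, where the numbers do not pair the samples; the block moved no other count by over 1.5 times. Leaving out vegetal number 3 and whole embryo number 6 of 12 hpf together, chosen after seeing the data, gave 4 higher in hemisphere samples. Among named members 22 single results were weaker, 3 stronger and 447 unchanged in call. With 3 or 4 libraries a group, unknown read counts per unigene and no depth for the hemisphere set, absence of a difference is not shown.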

Other observations

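At 5 hpf the 145 members summed to 3626, 2205 and 4019 RPKM in libraries 6, 7 and 20, against 9878, 6978 and 9184 RPKM for the 154 unigenes with a symbol and the same profile. At 1.5 hpf the members summed to 35238, 34156 and 37827 RPKM, against 4970, 5582 and 4867 RPKM for those with a symbol. These sums are a description, since the same rule chose both lists.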
